A study of Mus musculus with 21 samples.

Results

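RNA of tumor-infiltrating inflammatory monocytes (TIMs) from primary lung tumors was compared with RNA of bone marrow inflammatory monocytes (BM IMs) of the same mouse strain, and the gene programs that differed are described here. The libraries were chosen by their labels, and 8 of the 21 libraries of the series were used: 5 of TIMs from LN2E1 primary tumors and 3 of BM IMs from naive FVB mice without tumor. LN2E1, labelled KAL-LN2-E1, is a lung squamous cell carcinoma (LUSC) line made by passaging in vivo, of which 500000 cells per mouse were injected orthotopically into the lung of FVB mice. Hosts were adult mice with their own immune system and no engineered allele named in the labels. Monocytes came from digested tumor in 1 group and from marrow in the other, and were isolated with a magnetic kit and by sorting of live CD45+ CD11b+ cells high in Ly6C and without Ly6G or Siglec-F. The labels name both steps for tumor tissue and do not say which were used on marrow. Tumor, lung, digestion and the exit from the marrow all changed together between the groups and cannot be told apart.

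Inflammatory monocytes are made in the marrow from dividing progenitors, leave it through the chemokine receptor Ccr2, and enter inflamed or tumor tissue. There they sense damage and microbial products with Toll-like receptors and release cytokines and chemokines under NF-kB. They also answer interferon through STAT and IRF factors, and can mature toward macrophages or antigen-presenting cells. Tumor monocytes are known for checkpoint ligands, arginine-consuming enzymes and matrix enzymes.

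The authors' raw read counts were used, 1 for each of 23420 gene symbols per library. Total counts ran from 82366078 to 94315412 in BM IM libraries and from 87268067 to 95041694 in TIM libraries, and a count of 0 allows up to 3 counts, a limit that covers counting error only. Pairs of libraries of 1 group correlated at 0.970 to 0.978 (BM IMs) and 0.949 to 0.978 (TIMs) on the log2 CPM scale, where CPM is the count per 1000000 counts of a library, scaled with TMM factors. TIM replicate 3 had the value that stood apart, by Dixon's criterion, for 13 of the 18 genes described below for which 1 of the 5 TIM libraries did. The ribosomal RNA gene Rn45s took 0.623% to 2.04% of counts in BM IM libraries and 0.0472% to 0.0682% in TIM libraries. The labels number the samples and the methods speak of technical replicates, so p-values measure the spread between these samples, which may be technical.

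Of the 14569 genes tested, 12.9% were differentially expressed genes (DEGs), with an adjusted p under 0.0001 and a log2 fold change beyond 1 in either direction. These were 1879 genes, and 938 to 1240 without BM IM replicate 1 or 2 or TIM replicate 2, 4 or 5. Because DEG counts depended on single libraries, below a gene "rose" or "fell" when its adjusted p was under 0.05 and the fold limit the same. By this rule 23.7% of all genes tested rose and 11.6% fell in TIMs, and the counts of each list are read against these shares. A gene with at most 3 counts in every library of 1 group could be tested only through its counts in the other group. Its direction was then fixed in advance, among all genes and in each list below. At an adjusted p under 0.05 alone, 33.3% of genes were higher and 28.6% lower. Scaling to library totals in place of TMM moved the median of all genes from 0.08 to -0.09 on the log2 scale, and the DEGs on the rising side from 59.8% to 45.4% of all DEGs. Values after ± are SDs for CPM (n = 3 BM IM and n = 5 TIM libraries) and standard errors for log2 fold changes, and p-values come from quasi-likelihood fits in edgeR, adjusted over every tested gene after Benjamini and Hochberg.

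The sort and lineage genes were high in both groups. Ccr2 (GRCm38 chr9:124101950-124113557), the receptor that draws monocytes out of marrow, had 708, 734 and 711 CPM in BM IMs and 1010, 982, 1250, 1250 and 1190 CPM in TIMs, a difference of 0.65 ± 0.11 on the log2 scale (adjusted p = 6.27e-04) that is below the fold set for a call. Ly6c2 (chr15:75108158-75111970), which encodes the sorted Ly6C antigen, had 3620, 3040 and 2460 CPM in BM IMs and 1170, 1390, 1110, 1270 and 1300 CPM in TIMs. It fell in TIMs (log2 fold change -1.30 ± 0.12, adjusted p = 1.68e-05), and every TIM library lay below every BM IM library. Reads of Ly6c2 and its near copy Ly6c1 may be split uncertainly. Among the 21 monocyte identity genes, 8 rose and 2 fell, with a median log2 fold change of 0.65. Cebpb, a myeloid transcription factor, was the other gene that fell (-2.50 ± 0.45).

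Some genes linked to the Ly6C-low patrolling state rose and others did not. Ace, the angiotensin-converting enzyme, had 2.16, 1.69 and 3.11 CPM in BM IMs and 286, 153, 103, 133 and 181 CPM in TIMs (log2 fold change 6.18 ± 0.43, adjusted p = 3.32e-06). Treml4, a receptor of the patrolling state, rose by 3.13 ± 0.22, and Nr4a1, its nuclear receptor, by 3.64 ± 0.43. Cx3cr1, the fractalkine receptor that marks the patrolling state, had 93.3, 81.4 and 82.1 CPM in BM IMs and 143, 98.2, 50.8, 77.8 and 131 CPM in TIMs, with overlapping groups (log2 fold change 0.21 ± 0.29, adjusted p = 0.549). Fcgr1, the high-affinity IgG receptor CD64, rose by 4.48 ± 0.31.

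Libraries of both groups carried RNA of marker genes of cells outside the sort, and the kinds differed between the groups. All 10 fibroblast markers rose in TIMs, and their summed level was 5.57 to 9.24 CPM in BM IM libraries and 410 to 1220 CPM in TIM libraries. Of 10 lung epithelium markers, 9 rose and 1 fell. Sftpc, the surfactant protein C gene of alveolar type II cells, held at most 1 count in any BM IM library and had 43.5 to 623 CPM in TIM libraries, and Hopx, the marker that fell, made up nearly all of the BM IM sum of 247 to 318 CPM. The squamous markers Krt5, Trp63 and Krt6a were at most 0.292 CPM in every library, and Krt14 at most 2.49 CPM. Cdh1, Epcam, Krt8, Krt18, Krt19 and Sfn, which other epithelia also express, were the 6 genes of that list that could be tested, and all 6 rose.

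In the other direction, all 11 neutrophil precursor genes fell, from a sum of 4310 to 5320 CPM in BM IM libraries to 54.8 to 202 CPM in TIM libraries. Elane (GRCm38 chr10:79886247-79888215), the neutrophil elastase gene of promyelocytes, had 502, 429 and 528 CPM in BM IMs and 1.86, 0.43, 0.818, 2.55 and 0.882 CPM in TIMs (log2 fold change -8.55 ± 0.53, adjusted p = 1.83e-06). Eosinophil genes went from 677 to 1280 CPM to 22.7 to 31.5 CPM, with 6 of 9 lower, and mast cell and basophil genes from 230 to 284 CPM to 8.99 to 29.8 CPM, with 4 of 6 lower. Genes of mature neutrophils did not move as a group, with 3 of 7 that rose and 2 that fell, S100a8 and S100a9, the latter not without BM IM replicate 3 (adjusted p = 0.0511). The gating strategy given for tumor and marrow leaves out Siglec-F+ cells, which include eosinophils, while the methods text names that step for lung tissue, and its part in the eosinophil sums was not tested. In bulk libraries such as these, fewer cells of a type and less RNA per cell cannot be told apart.

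Marker sums of lymphoid, dendritic and other cells are given for comparison. T cell genes summed to 2.31 to 3.67 CPM in BM IM and 17.2 to 36.1 CPM in TIM libraries, and 5 of 8 rose. NK cell genes summed to 0.748 to 10.5 CPM and 9.74 to 16 CPM, and B cell genes to 31.3 to 43.2 CPM and 23 to 48.8 CPM. Dendritic cell genes rose for 7 of 10, from 92.1 to 102 CPM to 192 to 347 CPM. Endothelial genes rose for 3 of 8 and summed to at most 73.2 CPM in TIM libraries. Plasma cell genes rose for 3 of 5, with sums of 473 to 508 CPM in BM IM libraries and 882 to 1250 CPM in TIM libraries, which did not overlap. Alveolar macrophage genes summed to 3020 to 3710 CPM in BM IM and 3860 to 9400 CPM in TIM libraries, which did not overlap. Of 8 tested, 1 rose and 1 fell. Red blood cell genes were at most 10.6 CPM.

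**Figure D1:**
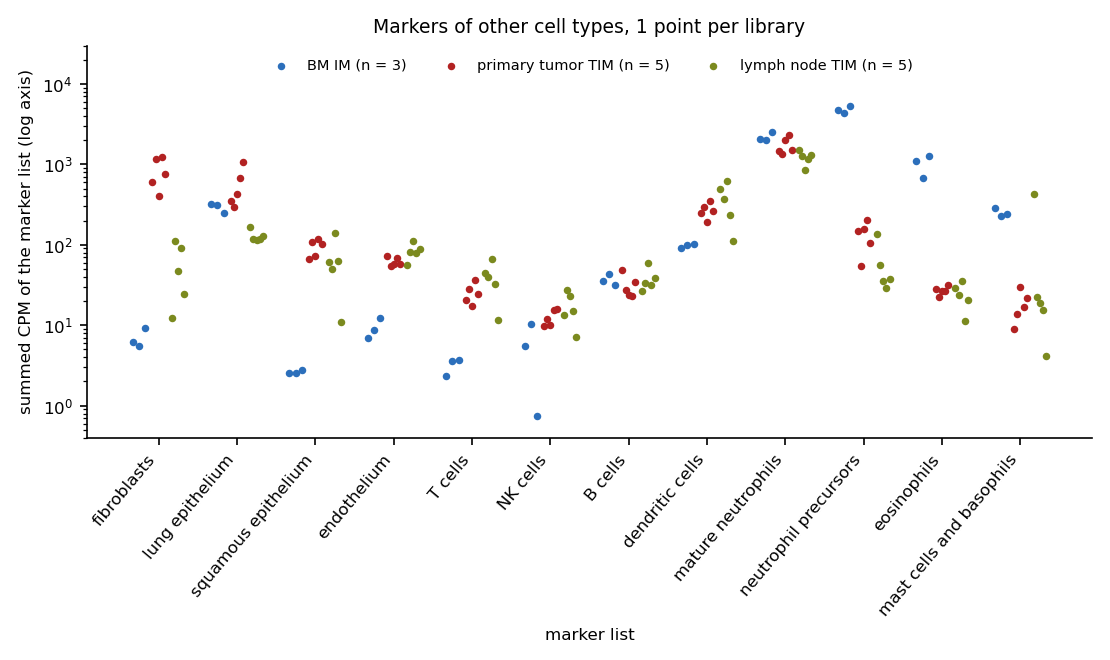
Summed CPM of each marker list (log axis) in every library, 1 point per library, for BM IMs (blue), LN2E1 primary tumor TIMs (red) and LN2E1 lymph node TIMs (green). Fibroblast sums are 410 to 1220 CPM in primary tumor TIMs and at most 9.24 CPM in BM IMs, while neutrophil precursor sums are at least 4310 CPM in BM IMs and at most 202 CPM in primary tumor TIMs.

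Named here are the 10 rising and 10 falling DEGs with the largest changes, a mean log2 CPM above 3 over the 8 libraries and no overlap between groups. A gene could pass that mean through 1 group alone. Mean levels were at most 3.13 CPM in BM IMs for the risers and at most 10.3 CPM in TIMs for the fallers. The 10 risers were Col3a1, Col1a2, Dab2, Slc4a11, Cxcl11, Saa3, Tgm2, Socs3, Mmp14 and Gbp4. Saa3, an acute phase serum amyloid A, had 0.354, 0.581 and 0.433 CPM in BM IMs and 138, 188, 651, 387 and 185 CPM in TIMs (log2 fold change 9.39 ± 0.77, adjusted p = 1.03e-05), and Dab2, an endocytic adaptor of macrophages, had 0.331, 0.122 and 0.0721 CPM in BM IMs and 239, 161, 278, 179 and 129 CPM in TIMs (log2 fold change 10.17 ± 0.54, adjusted p = 7.37e-07). Slc4a11, a membrane transporter, rose by 9.51 ± 0.67. Col3a1 and Col1a2, fibrillar collagens, moved with the fibroblast markers given above, and the part of those cells in their values was not tested.

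The 10 fallers were Mpo, Elane, Ctsg, 2810417H13Rik, Spc24, Ccnb2, Birc5, Nusap1, Hist1h2ab and Rrm2. Mpo, the myeloperoxidase of neutrophil granules, had 1380 ± 153 CPM in BM IMs and 2.35 ± 2.16 CPM in TIMs (log2 fold change -9.21 ± 0.81, adjusted p = 1.57e-05), and Ctsg, cathepsin G, fell to 1.37 to 2.33 CPM (log2 fold change -6.33 ± 0.21, adjusted p = 8.36e-08). The other 7 belong to cell division or chromatin duplication. Spc24, a kinetochore subunit, fell (-5.45 ± 0.35), and so did 2810417H13Rik, a clamp-binding repair factor (-5.66 ± 0.40). Hist1h2ab, a replication-dependent histone with near-identical copies and so uncertain, fell as well (-5.02 ± 0.25).

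**Figure D2:**
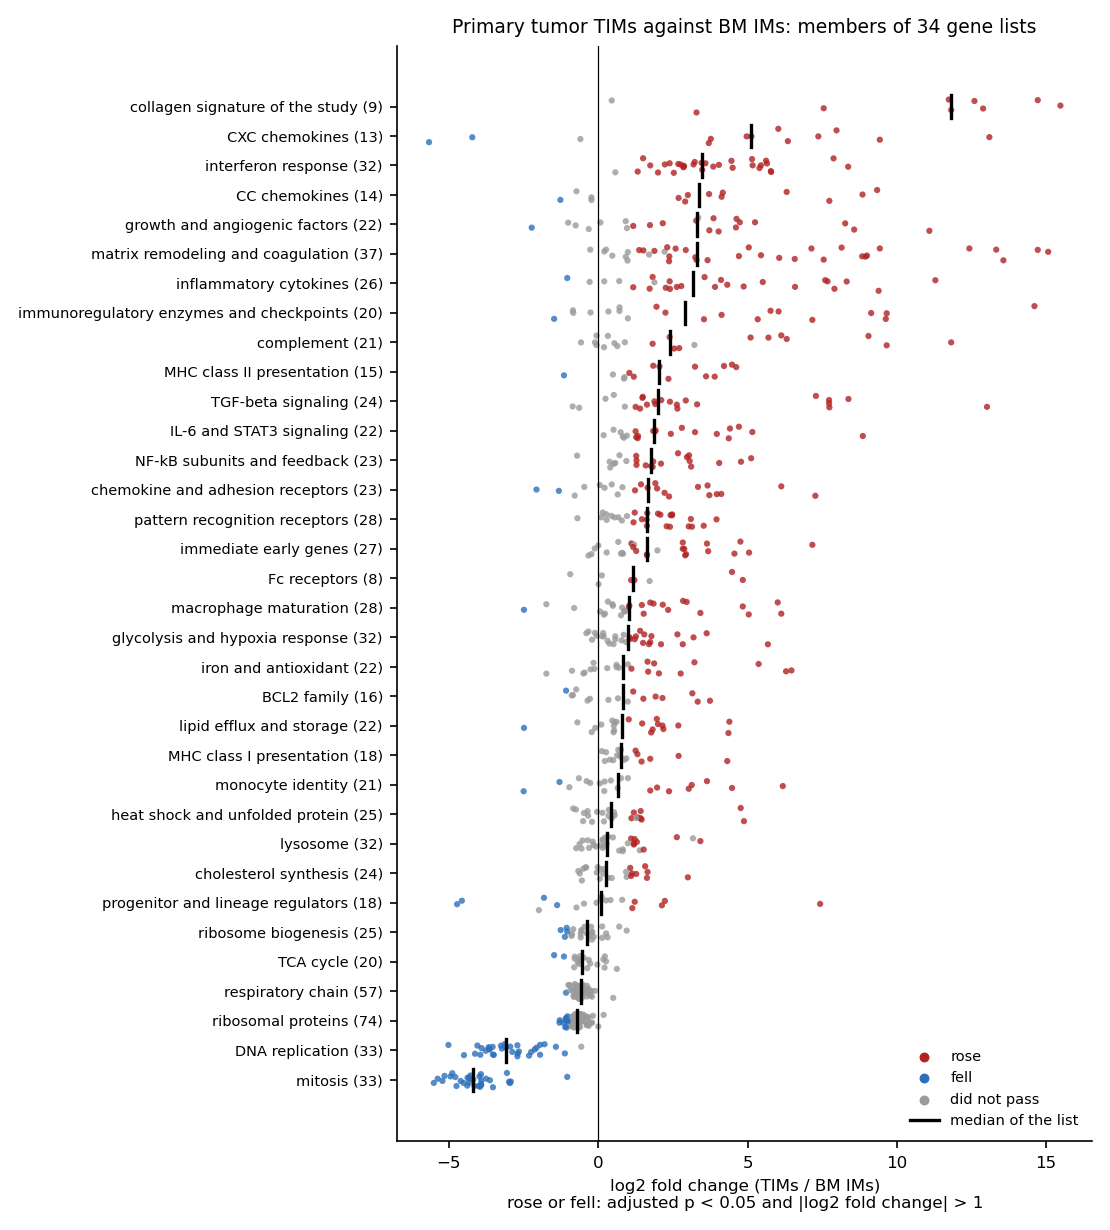
Log2 fold change of every tested member of 34 gene lists, TIMs against BM IMs, 1 point per gene (number tested in parentheses), with the median of each list as a bar. Points of genes whose BM IM libraries held at most 3 counts each are fitted values with no upper limit. DNA replication and mitosis members lie on the falling side, interferon response, chemokine and matrix members mostly on the rising side, and respiratory chain and ribosomal protein members just below 0.

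Cytokine genes rose as a group. Of 26 tested, 21 rose and 1 fell, against 23.7% and 11.6% of all genes, with a median of 3.17, or 2.70 with the 5 genes that had at most 3 counts in every BM IM library set at their lower bound. These 5 genes could be tested only through their TIM counts, so they could rise but not fall. Il1rn (GRCm38 chr2:24336853-24351494), the interleukin-1 receptor antagonist, had 15.4, 17.8 and 15.9 CPM in BM IMs and 813, 741, 933, 643 and 624 CPM in TIMs (log2 fold change 5.51 ± 0.18, adjusted p = 8.36e-08). Its agonists rose with it, Il1b by 7.68 ± 0.22 and Il1a by 4.32 ± 0.47. Tnf, the tumor necrosis factor gene, went from 5.65 to 6.6 CPM to 28.1 to 34.1 CPM (log2 fold change 2.26 ± 0.13, adjusted p = 7.44e-07). Il10, which restrains macrophages, held at most 1 count in a BM IM library and had 1.27 to 3.55 CPM in TIM libraries, and Tgfb3, a latent growth factor, had 0.0306 to 0.036 CPM in BM IM and 7.68 to 16.5 CPM in TIM libraries (adjusted p = 5.97e-07). The gene that fell was Ebi3, a subunit of interleukin-27 (-1.04 ± 0.14), at the edge of the rule: without BM IM replicate 1, BM IM replicate 2 or TIM replicate 4 it had -0.99, -0.94 and -0.98.

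Chemokines of both families rose. Of 13 CXC genes, 10 rose and 2 fell (median 5.13), and of 14 CC genes, 10 rose and 1 fell (median 3.36). Cxcl10 (GRCm38 chr5:92346638-92348889), an interferon-induced attractant of T cells, had 6.27, 3.44 and 3.91 CPM in BM IMs and 255, 363, 254, 309 and 317 CPM in TIMs (log2 fold change 6.03 ± 0.26, adjusted p = 2.18e-07). Cxcl9 and Cxcl11, which bind the same receptor Cxcr3, rose by 7.37 ± 0.38 and 9.43 ± 0.67. Cxcl2 and Cxcl1, attractants of neutrophils, rose by 3.70 ± 0.43 and 6.35 ± 0.41, and Cxcl16, a membrane-bound ligand, by 5.13 ± 0.23. The 2 that fell, Pf4 and Ppbp (-4.22 ± 0.70 and -5.67 ± 1.0), are stored in platelets and megakaryocytes, and in BM IM libraries they ranged over 7.91 to 52.2 CPM and 8.37 to 48.6 CPM.

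Among CC genes, several ligands of Ccr2 rose. Ccl7 had 0.206, 0.112 and 0.126 CPM in BM IMs and 34.3, 58.3, 108, 77 and 66.2 CPM in TIMs (log2 fold change 8.85 ± 0.51, adjusted p = 1.01e-06), Ccl12 rose by 7.74 ± 0.68, and Ccl2, the main monocyte attractant, by 2.69 ± 0.40. Ccl8 rose by 4.17 ± 0.30. The inflammatory chemokines Ccl4 and Ccl3 went in opposite directions. Ccl4 rose by 3.00 ± 0.15, whereas Ccl3 had 426, 225 and 266 CPM in BM IMs and 134, 128, 133, 114 and 131 CPM in TIMs and fell (log2 fold change -1.27 ± 0.17, adjusted p = 1.80e-04), the 1 CC gene that did so. Without BM IM replicate 1 its value was -0.93, short of a call. TIM libraries were close together for Ccl3, and the BM IM libraries all lay above them.

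NF-kB, a family of dimeric factors held in the cytosol by IkB proteins, drives its own inhibitors as feedback. Of 23 genes of its subunits and feedback, 16 rose and none fell (median 1.77). Tnfaip3, which encodes the inhibitor A20, had 54.9, 36.2 and 77.8 CPM in BM IMs and 529, 446, 496, 506 and 490 CPM in TIMs (log2 fold change 3.11 ± 0.24, adjusted p = 4.63e-06), and Nfkbia, the IkB-alpha gene, rose by 1.28 ± 0.18. Traf1 (5.12 ± 0.30), the feedback ligase partner of TNF receptors, Ier3 (4.05 ± 0.44), Icam1 (3.06 ± 0.12), an adhesion ligand, and Zc3h12a (3.04 ± 0.31), an RNase that degrades cytokine messages, were the further DEGs with the largest changes. The 2 members with the largest changes and a kB-like match in the promoter were Tnip3 (4.78 ± 0.70) and Tnfaip3.

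Promoters of this list are shown because its members moved together. Windows searched ran from 250 bases before to 50 bases after the RefSeq start (GRCm38.p6). A kB-like motif, GGGNNTTTC or GGGNNTTCC on either strand, was found in 11 of 20 windows of the list (55%). It was in 5 of 10 CXC chemokine windows (50%), against 9.69% of 16375 windows of all genes in the table. Genes that rose and genes that fell had it in 11% and 11.4% of windows, so it did not separate the directions. Its letters were shortened after a first search. The list was chosen as NF-kB subunits and feedback genes, so its share is no independent evidence. The 2 windows below run from 250 bases before to 30 after the start, with matches in capitals, at chr6:65590148-65590427, plus strand (Tnip3) and chr10:19015381-19015660, minus strand (Tnfaip3).
Tnip3: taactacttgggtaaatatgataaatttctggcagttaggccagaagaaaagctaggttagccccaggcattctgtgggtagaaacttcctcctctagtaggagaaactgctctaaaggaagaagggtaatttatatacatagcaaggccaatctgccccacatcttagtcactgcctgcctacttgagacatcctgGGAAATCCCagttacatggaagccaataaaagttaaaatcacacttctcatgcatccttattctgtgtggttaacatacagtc
Tnfaip3: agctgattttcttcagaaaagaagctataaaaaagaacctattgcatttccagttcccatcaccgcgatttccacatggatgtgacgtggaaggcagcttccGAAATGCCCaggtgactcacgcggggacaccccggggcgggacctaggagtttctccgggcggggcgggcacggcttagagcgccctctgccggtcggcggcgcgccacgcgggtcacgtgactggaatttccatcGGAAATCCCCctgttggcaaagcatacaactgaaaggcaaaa
The matches lie upstream of the start in both, 1 in Tnip3 and 3 in Tnfaip3, of which those next to the start overlap. A match is a description of letters and not evidence of binding.

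Genes upstream and downstream of these cytokines moved too. Of 28 pattern recognition receptor genes, 18 rose and none fell (median 1.63). Cd14, the lipopolysaccharide co-receptor, had 667, 563 and 545 CPM in BM IMs and 4290, 4090, 6960, 4570 and 4470 CPM in TIMs (log2 fold change 3.03 ± 0.20, adjusted p = 2.07e-06), and its partner Tlr4 rose by 2.40 ± 0.20. Tlr2 rose by 1.62 ± 0.11, and Trem1, an amplifying receptor, Clec4d, a mycobacterial lectin receptor, and Nod1, a cytosolic sensor, by 3.96 ± 0.19, 3.14 ± 0.24 and 3.10 ± 0.24. Of 22 IL-6 and STAT3 pathway genes, 16 rose and none fell (median 1.87). The cytokine-induced inhibitors Socs3, Socs1 and Cish rose by 8.86 ± 0.36, 4.37 ± 0.18 and 5.16 ± 0.60, and the receptor chains Il21r and Il4ra by 4.71 ± 0.25 and 3.97 ± 0.22. Il6ra, the IL-6 receptor chain, differed by 0.51 ± 0.17.

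Most immediate early genes, which dissociation of tissue can also induce, rose, but Fos and Jun did not pass. Of 27, 16 rose and none fell (median 1.63), against 23.7% and 11.6% of all genes. Fos, the prototype, had 7340, 4660 and 5650 CPM in BM IMs and 5730, 4920, 4060, 4510 and 4340 CPM in TIMs, and the groups overlapped (log2 fold change -0.33 ± 0.15, adjusted p = 0.0839). Jun, its partner, had 729, 396 and 672 CPM in BM IMs and 1200, 1300, 716, 982 and 1080 CPM in TIMs (log2 fold change 0.80 ± 0.23, adjusted p = 0.0139), and it also overlapped. DEGs among them included Csrnp1 (4.76 ± 0.25), Maff (4.56 ± 0.43), Egr2 (3.68 ± 0.26) and Nr4a1. Tumor tissue was digested with enzymes, a step the methods do not describe for marrow, and its part was not tested.

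Of 25 heat shock and unfolded protein genes, 8 rose and none fell (median 0.44), against 23.7% and 11.6% of all genes. At an adjusted p under 0.05 alone, 14 were higher and 6 lower, against 33.3% and 28.6% of all genes. Hspa1a and Hspa1b, the inducible chaperones, rose by 4.88 ± 0.47 and 4.77 ± 0.46; they are near-identical copies whose reads may be split uncertainly. Hspa5, the chaperone of the endoplasmic reticulum, rose by 1.19 ± 0.12, Calr, a calcium-binding chaperone, by 1.45 ± 0.14, and Sesn2, a stress-induced regulator, by 1.42 ± 0.17.

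The interferon response was the most uniform of the rising programs in these lists. Of 32 genes, 31 rose and none fell (median 3.47), and the count was 31 when any 1 library was left out. Isg15 (GRCm38 chr4:156199424-156200818), a ubiquitin-like antiviral protein, had 5.72, 5.86 and 2.86 CPM in BM IMs and 143, 226, 176, 168 and 147 CPM in TIMs (log2 fold change 5.15 ± 0.30, adjusted p = 9.92e-07). Ifit1, which blocks viral RNA, rose by 5.17 ± 0.39, Oas3, an RNA-sensing synthetase, by 5.79 ± 0.37, and Ifi44 by 5.78 ± 0.66. Gbp4 had 1.42, 1.08 and 0.469 CPM in BM IMs and 392, 351, 313, 330 and 241 CPM in TIMs (log2 fold change 8.37 ± 0.40, adjusted p = 4.04e-07), and Iigp1 rose by 7.88 ± 0.51; both are GTPases chiefly induced by interferon-gamma. The 1 gene that did not pass was Cmpk2 (0.57 ± 0.15). Each TIM library lay above each BM IM library for each gene named here. Several of these genes were named for their large change, and the share of all genes so separated was not computed.

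An ISRE-like motif, GAAANNGAA on either strand, was in 17 of 24 promoter windows of the list (70.8%), against 8.04% of windows of all genes, 9.52% of those of genes that rose and 7.3% of those that fell. Its letters were also shortened after a first search. The windows of Oas3 (chr5:120777630-120777909, minus strand) and Ifi44 (chr3:151749881-151750160, minus strand) are shown because they belong to the matched members with the largest changes. Matches are in capitals.
Oas3: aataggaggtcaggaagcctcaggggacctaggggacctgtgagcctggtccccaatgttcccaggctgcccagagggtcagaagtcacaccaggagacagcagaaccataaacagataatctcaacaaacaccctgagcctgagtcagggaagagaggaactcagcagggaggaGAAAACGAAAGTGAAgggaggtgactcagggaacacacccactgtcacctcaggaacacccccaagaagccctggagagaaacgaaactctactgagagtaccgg
Ifi44: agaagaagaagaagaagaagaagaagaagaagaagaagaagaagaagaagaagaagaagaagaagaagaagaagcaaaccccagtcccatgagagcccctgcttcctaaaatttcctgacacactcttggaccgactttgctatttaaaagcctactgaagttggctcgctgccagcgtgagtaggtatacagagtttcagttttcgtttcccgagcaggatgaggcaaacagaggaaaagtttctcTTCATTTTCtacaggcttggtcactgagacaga
Oas3 holds 2 overlapping matches, and on the strand shown the Ifi44 match is the reverse complement of the motif.

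**Figure D3:**
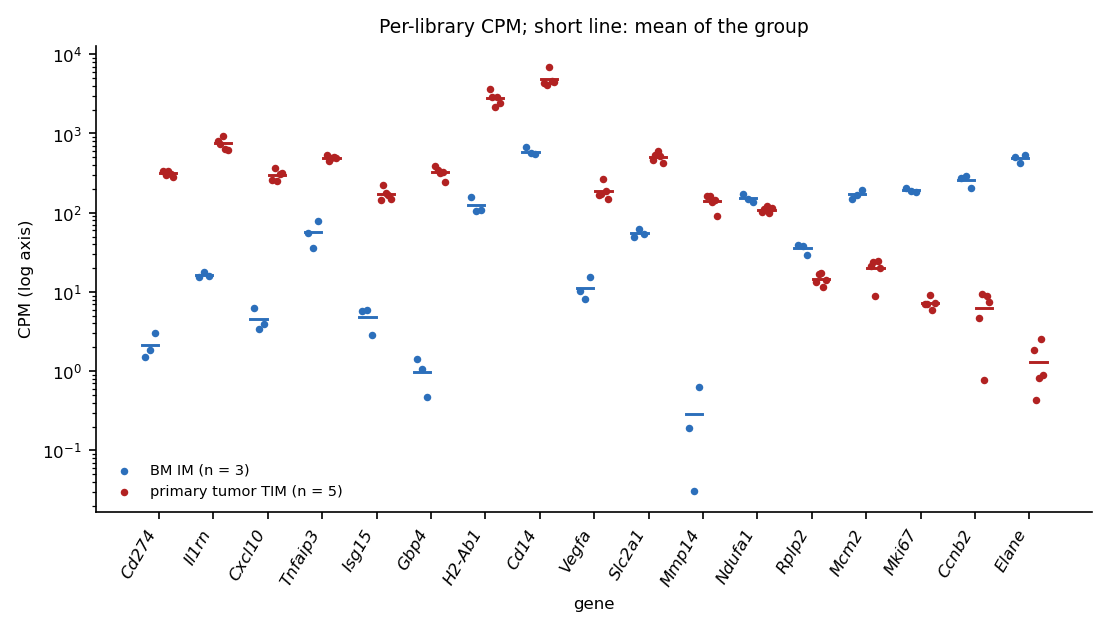
CPM (log axis) of 17 genes in each BM IM (blue, n = 3) and TIM (red, n = 5) library, with the mean of each group as a short line. No gene drawn has overlapping groups; Cd274, Il1rn, Cxcl10, Isg15 and Gbp4 are over 10-fold apart on the rising side, Mki67, Ccnb2 and Elane on the falling side, and Ndufa1 and Rplp2 are close together.

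Genes of antigen presentation rose in part. Of 15 class II genes, 11 rose and 1 fell (median 2.05). Ciita, the master regulator of class II transcription, went from 2.25 to 5.87 CPM to 65.2 to 122 CPM (log2 fold change 4.62 ± 0.40, adjusted p = 1.20e-05). H2-Ab1 (GRCm38 chr17:34257689-34269419), a class II beta chain, had 156, 106 and 109 CPM in BM IMs and 3640, 2880, 2160, 2880 and 2390 CPM in TIMs (log2 fold change 4.48 ± 0.23, adjusted p = 4.69e-07). The invariant chain Cd74, H2-Aa, H2-Eb1 and the costimulator Cd86 rose by 4.21 ± 0.22, 3.90 ± 0.24, 3.24 ± 0.34 and 2.35 ± 0.12. Ifi30, a lysosomal reductase, fell (-1.15 ± 0.12, or -0.99 without BM IM replicate 1, short of a call). Dendritic cell markers, which class II also marks, rose beside these genes with the sums given above, and their part was not tested.

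Of 18 class I genes, 6 rose and none fell (median 0.75). At an adjusted p under 0.05 alone, 14 of 18 class I and 14 of 15 class II genes were higher, against 33.3% of all genes. Tap1 and Tap2, the peptide transporter, and Tapbp rose by 2.69 ± 0.11, 1.74 ± 0.11 and 1.31 ± 0.08, and Nlrc5, the class I transactivator, by 4.32 ± 0.14. B2m, the light chain, had 2070 ± 562 CPM in BM IMs and 3490 ± 209 CPM in TIMs, a difference of 0.74 ± 0.15 that is under the fold set for a call.

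Checkpoint and enzyme genes of immune control rose for 12 of 20 and fell for 1 (median 2.89). Cd274 (GRCm38 chr19:29367455-29388095), which encodes PD-L1, had 1.53, 1.84 and 3.06 CPM in BM IMs and 337, 303, 334, 310 and 283 CPM in TIMs (log2 fold change 7.17 ± 0.28, adjusted p = 1.49e-07), so the lowest TIM library lay far above the highest BM IM library. Pdcd1lg2, the other PD-1 ligand, held at most 3 counts in a BM IM library and had 7.04 to 10.5 CPM in TIM libraries. Nos2, inducible nitric oxide synthase, had 0 counts in every BM IM library and 20.7 to 44.9 CPM in TIM libraries, and so was at least 1100-fold higher. Arg1, arginase 1, rose from 0.137 to 0.459 CPM to 8.13 to 39.7 CPM (log2 fold change 5.77 ± 0.72, adjusted p = 1.16e-04). Nt5e, the ectoenzyme CD73 that forms adenosine, had 0.0571, 0.0204 and 0.018 CPM in BM IMs and 27.3, 17, 42.1, 26.1 and 15.3 CPM in TIMs (log2 fold change 9.63 ± 0.58, adjusted p = 1.30e-06), and Irg1, the itaconate-forming enzyme, rose by 9.66 ± 0.53. Ptgs1, the constitutive cyclooxygenase, was the gene that fell (-1.48 ± 0.19), and did not pass with all 5 groups in 1 fit (-1.47, adjusted p = 0.0575).

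Of 28 genes of macrophage maturation, 15 rose and 1 fell (median 1.03), and the rise did not extend to all macrophage genes. Emr1, which encodes F4/80, had 113 ± 16.2 CPM in BM IMs and 194 ± 21.1 CPM in TIMs (0.76 ± 0.13), and the complement gene C1qa 14.9 ± 5.98 CPM in BM IMs and 28.1 ± 16.3 CPM in TIMs (0.89 ± 0.46), both short of a call. Itgax, the integrin CD11c, rose by 6.13 ± 0.47, Mmp12, the macrophage elastase, by 5.04 ± 0.56, Fcgr4, an activating IgG receptor, by 4.84 ± 0.13 and Lgmn, a lysosomal protease, by 3.42 ± 0.22. Lpl, lipoprotein lipase, fell (-2.49 ± 0.27). Fcgr4 had 5.82, 5.61 and 4.88 CPM in BM IMs and 168, 178, 149, 152 and 140 CPM in TIMs. Of 8 Fc receptor genes, 4 rose and none fell: Fcgr1, Fcgr4, Fcgr2b (1.21 ± 0.17), the inhibitory receptor, and Fcgr3 (1.10 ± 0.13, or 0.93 with scaling to library totals, short of a call).

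Complement genes rose for 11 of 21, with none that fell (median 2.39). C3, the central component, had 454 ± 171 CPM in BM IMs and 671 ± 57 CPM in TIMs (0.54 ± 0.21), and Cfb, factor B of the alternative pathway, rose by 6.31 ± 0.23. C3ar1, the anaphylatoxin receptor of myeloid cells, went from 2.01 to 2.47 CPM to 76.2 to 179 CPM (log2 fold change 5.70 ± 0.33, adjusted p = 9.76e-07). C4b and C1s, which fibroblasts also make, had 64.4 to 148 CPM and 7.61 to 30.3 CPM in TIM libraries and at most 0.316 CPM and 0.0102 CPM in BM IM libraries. The fibroblast sums rose beside them.

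Matrix and coagulation genes rose for 28 of 37, with none that fell (median 3.29). Mmp14 (GRCm38 chr14:54431612-54445364), a membrane-bound collagenase, had 0.194, 0.0306 and 0.64 CPM in BM IMs and 164, 163, 136, 145 and 90.6 CPM in TIMs (log2 fold change 8.84 ± 0.70, adjusted p = 8.30e-06). Mmp3, Mmp13, Thbs2 and Adamts1, secreted matrix enzymes and a matricellular protein that stromal cells make, had 0 counts in each BM IM library, and they were at least 1530-fold, 540-fold, 1190-fold and 457-fold higher in TIMs. Mmp9, a gelatinase, did not pass (2.26, 4.14 and 6.09 CPM in BM IMs and 5.49, 5.37, 10, 68.3 and 9.07 CPM in TIMs, log2 fold change 2.22 ± 0.95, adjusted p = 0.069), but did without TIM replicate 1 (2.46, adjusted p = 0.0432) or 2 (2.46, adjusted p = 0.0482). TIM replicate 4 held the highest value of Mmp9, and the other TIM libraries lay near the BM IM range. Fibroblast sums, 5.57 to 9.24 CPM in BM IM and 410 to 1220 CPM in TIM libraries, rose beside the matrix genes, and their part was not tested.

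A list of 11 genes that the study uses as a collagen signature held 9 tested genes, of which 8 rose and none fell. The study selected these genes in LUSC patient tumors and measured them in cancer cell spheroids and cancer-associated fibroblasts. The median of the list was 11.82, or 8.39 with genes at their bound. Since the study chose the list on related data, it is no independent evidence of direction. Col3a1 had 1, 1 and 0 counts in BM IM libraries and 194 to 581 CPM in TIM libraries (adjusted p = 4.04e-07). Col1a1 had 21.7 to 41.4 CPM and Col1a2 89.6 to 330 CPM in TIM libraries (adjusted p = 1.59e-07 and adjusted p = 8.91e-06), against at most 0.0102 CPM and 0.183 CPM in BM IM libraries. Grem1, a secreted antagonist of bone morphogenetic proteins, Postn and Thbs2 had 0 counts in BM IM libraries and 4.0 to 17 CPM, 1.56 to 9.25 CPM and 21.1 to 57.5 CPM in TIM libraries. Fibroblast markers that the list does not hold rose with it: Dcn, decorin, had 38.4 to 139 CPM and Pdgfra, a fibroblast receptor, 14 to 48.7 CPM in TIM libraries, and Lum 3.67 to 20.3 CPM. The part of fibroblast RNA in these values was not tested.

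Growth and angiogenic factors rose for 14 of 22 and fell for 1, Egf (-2.23 ± 0.78, adjusted p = 0.0307), with a median of 3.32. Egf did not pass without BM IM replicate 2 or 3 or TIM replicate 2 or 5 (adjusted p = 0.0578 to 0.0957). Vegfa (GRCm38 chr17:46016993-46032369), the vascular endothelial growth factor, had 10.4, 8.17 and 15.4 CPM in BM IMs and 169, 170, 265, 186 and 149 CPM in TIMs (log2 fold change 4.03 ± 0.29, adjusted p = 3.18e-06), and Hbegf, a ligand of the EGF receptor, rose from 0.0714 to 0.64 CPM to 8.23 to 14.2 CPM (log2 fold change 4.63 ± 0.61, adjusted p = 1.53e-04). Adm, adrenomedullin, had 0 counts in BM IM libraries and 1.59 to 3.99 CPM in TIM libraries, at least 96.4-fold more. TGF-beta pathway genes rose for 19 of 24, with none that fell (median 2.01). Tgfb1, its ligand in leukocytes, rose by 2.63 ± 0.28, its receptor Tgfbr1 by 2.11 ± 0.31, and Skil, a repressor that the pathway induces, by 3.31 ± 0.18. Lrrc32, which tethers the latent ligand, and the latent binding proteins Ltbp2 and Ltbp4 had 0.758 to 4.66 CPM, 5.24 to 18.7 CPM and 4.38 to 23 CPM in TIM libraries and at most 0.018 CPM, 0 CPM and 0.108 CPM in BM IM libraries. Ltbp2 and Ltbp4 are matrix genes of stromal cells, and the fibroblast sums moved with them.

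Receptors for traffic and adhesion rose for 14 of 23 and fell for 2. Ccr7, which guides cells to lymph nodes, rose from 0 to 0.265 CPM to 15.4 to 32 CPM (log2 fold change 7.27 ± 0.77, adjusted p = 4.87e-05), and Itga5, the fibronectin receptor chain, by 3.72 ± 0.37. Ccr7 also belongs to the dendritic cell markers given above, and the part of those cells was not tested. Cxcr4, which retains cells in marrow, fell from 25.2 to 31.4 CPM to 8.82 to 13.6 CPM (log2 fold change -1.32 ± 0.16, adjusted p = 7.19e-05). Its adhesion counterpart Vcam1, chosen after its value was seen because it completes the count, also fell (-2.07 ± 0.41), but did not pass with all 5 groups in 1 fit (-2.05, adjusted p = 0.0941).

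**Figure D4:**
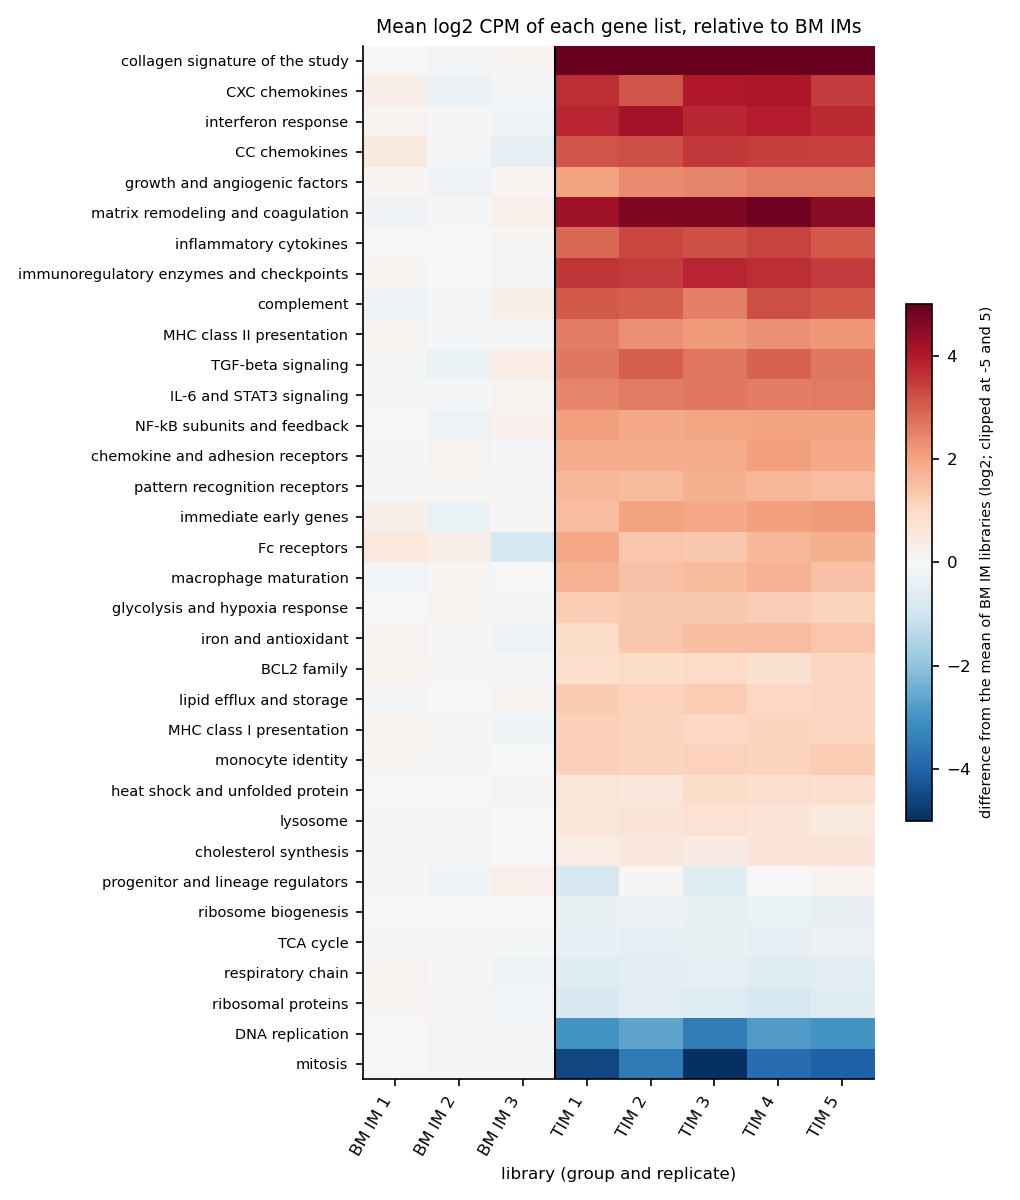
Mean log2 CPM of the members of 34 gene lists in each of 8 libraries, as the difference from the mean of the 3 BM IM libraries, on a color scale clipped at -5 and 5. Within a row the 5 TIM libraries share 1 color for most lists, and the progenitor list is the row in which they differ in sign.

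Part of the glycolysis and hypoxia genes rose. Of 32 glycolysis and hypoxia genes, 16 rose and none fell (median 0.99). Slc2a1 (GRCm38 chr4:119108711-119137983), the glucose transporter GLUT1, had 49.9, 62.2 and 53.1 CPM in BM IMs and 468, 539, 599, 521 and 418 CPM in TIMs (log2 fold change 3.19 ± 0.15, adjusted p = 3.13e-07), and Slc16a3, the lactate exporter, rose by 3.63 ± 0.32. Ldha, lactate dehydrogenase, rose by 1.06 ± 0.10 (0.98 without BM IM replicate 3 and 0.89 with scaling to library totals, both short of a call), Pfkfb3, which activates phosphofructokinase, by 2.83 ± 0.27, and Pdk1, which closes the entry of pyruvate into mitochondria, by 2.10 ± 0.16. Hif1a, the oxygen-regulated factor itself, rose by 2.65 ± 0.14.

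Members of the respiratory chain and TCA cycle lists were mostly lower by less than the fold set for a call. Of 57 respiratory chain genes, 1 fell, Ndufb7 (-1.08 ± 0.14, or -0.94 without BM IM replicate 1), but 52 were lower at an adjusted p under 0.05 alone, against 28.6% of all genes, and 1 was higher, Sdhc (0.50 ± 0.17). The median was -0.57. Ndufa1, a subunit of complex I, had 172, 149 and 135 CPM in BM IMs and 103, 111, 120, 97.8 and 115 CPM in TIMs (log2 fold change -0.49 ± 0.10, adjusted p = 0.00227), and Ndufa2 differed by -0.53 ± 0.10. In the TCA cycle list 14 of 20 were lower by that looser rule (median -0.54). The 2 members that fell were Idh1 and Idh2 (-1.48 ± 0.14 and -1.15 ± 0.09), isozymes that make NADPH. Cs, citrate synthase, differed by -0.03 ± 0.08, and its sign depended on the scaling. With scaling to library totals the medians were -0.74 and -0.71.

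Of 22 genes of lipid efflux and storage, 11 rose and 1 fell, the lipase Lpl, with a median of 0.81. Abca1, the cholesterol exporter, rose from 1.6 to 2.42 CPM to 21.5 to 65.7 CPM (log2 fold change 4.36 ± 0.39, adjusted p = 1.29e-05), Abcg1 by 1.77 ± 0.24, the scavenger receptor Cd36 by 4.39 ± 0.32, Nr1h3, the sterol sensor LXR-alpha, by 2.68 ± 0.21 and Dgat2 by 2.18 ± 0.15. Of 24 cholesterol synthesis genes, 8 rose and none fell (median 0.25), against 23.7% and 11.6% of all genes. With scaling to library totals 5 rose, beside 3033 of all 14569 genes tested. At an adjusted p under 0.05 alone, 11 were higher and 5 lower, against 33.3% and 28.6% of all genes. The regulator Srebf2 and the enzymes Sqle, Cyp51 and Sc4mol rose by 1.63 ± 0.18, 1.65 ± 0.17, 1.27 ± 0.12 and 1.13 ± 0.12, the last of them 0.96 with scaling to library totals.

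Of 32 lysosome genes, 8 rose and none fell (median 0.30), a share near the 23.7% of all genes that rose. Ctsb and Ctsd, the major cathepsins, differed by 0.82 ± 0.12 and 0.16 ± 0.17 and did not pass (Ctsd at -0.02 with scaling to library totals), while Ctsl, Ctsc and Ctss rose by 2.63 ± 0.25, 1.22 ± 0.14 and 1.19 ± 0.12. Of 22 iron and antioxidant genes, 10 rose and none fell (median 0.84). Hmox1, heme oxygenase 1, had 124, 140 and 163 CPM in BM IMs and 205, 204, 591, 224 and 197 CPM in TIMs and fell short of both thresholds (log2 fold change 0.99 ± 0.39, adjusted p = 0.0512). It passed with DESeq2 (1.04), with its size factors (1.04), with all 5 groups in 1 fit (1.0) and without TIM replicate 1, 2 or 5 (1.09 to 1.1). Slc7a11, the cystine importer, rose by 3.22 ± 0.36, ceruloplasmin (Cp), an iron oxidase, by 6.47 ± 0.75, metallothionein Mt2 by 5.37 ± 0.40, and the thioredoxin pathway genes Srxn1 and Txnrd1 by 2.76 ± 0.30 and 2.03 ± 0.15.

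The cell cycle was the largest falling program in these lists. Of 33 DNA replication genes, 32 fell and none rose (median -3.10), and all 33 of 33 mitosis genes fell (median -4.19), against 11.6% of all genes. Mki67 (GRCm38 chr7:135689784-135716361), the Ki-67 antigen of cycling cells, had 208, 190 and 185 CPM in BM IMs and 6.94, 7.14, 9.23, 5.9 and 7.26 CPM in TIMs (log2 fold change -4.75 ± 0.14, adjusted p = 6.27e-08). Ccnb2, a cyclin of mitosis, had 274, 292 and 205 CPM in BM IMs and 4.7, 9.5, 0.783, 8.79 and 7.36 CPM in TIMs (log2 fold change -5.38 ± 0.61, adjusted p = 7.16e-05), with TIM replicate 3 the lowest of the 5. Ccnb1, the partner of Cdk1, fell (-3.93 ± 0.39), and Nuf2 (-5.51 ± 0.48), Birc5 (-5.22 ± 0.37) and Nusap1 (-5.15 ± 0.58), which act at the kinetochore and spindle, were among the largest changes.

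Replication genes fell at the level of the helicase and of nucleotide supply. Mcm2, a helicase subunit, had 150, 167 and 194 CPM in BM IMs and 21.3, 23.8, 8.82, 24.8 and 20.1 CPM in TIMs (log2 fold change -3.13 ± 0.28, adjusted p = 1.44e-05), and Pcna, the polymerase clamp, differed by -1.95 ± 0.11. Rrm2 (-5.02 ± 0.44), a subunit of ribonucleotide reductase, Tyms (-4.13 ± 0.24), thymidylate synthase, Ccne2 (-4.50 ± 0.43), a cyclin of S phase entry, and Mcm10 (-4.05 ± 0.39) had the largest changes among the further DEGs. The 1 gene that did not pass was E2f2 (-0.57 ± 0.17). BM IM libraries also held more RNA of neutrophil precursors, which divide, and the part of those cells was not tested.

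Promoters of both lists are shown for the same reason as above. An E2F-like motif, TTTNNCGC on either strand, was in 13 of 27 DNA replication windows (48.1%), against 6.42% of windows of all genes and 11.7% of those of genes that fell. A CHR-like motif, TTTGAA or TTCGAA on either strand, was in 21 of 28 mitosis windows (75%), against 17.3% of all windows and 19.7% of those of genes that fell. Of the 99 windows of the 4 lists searched here, 4 held matches of different motifs that overlap. The windows shown, with matches in capitals, are Cdc6 (chr11:98907901-98908180, plus strand), Mcm6 (chr1:128359676-128359955, minus strand), Ccnb2 (chr9:70421525-70421804, minus strand) and Cdca8 (chr4:124936888-124937167, minus strand).
Cdc6: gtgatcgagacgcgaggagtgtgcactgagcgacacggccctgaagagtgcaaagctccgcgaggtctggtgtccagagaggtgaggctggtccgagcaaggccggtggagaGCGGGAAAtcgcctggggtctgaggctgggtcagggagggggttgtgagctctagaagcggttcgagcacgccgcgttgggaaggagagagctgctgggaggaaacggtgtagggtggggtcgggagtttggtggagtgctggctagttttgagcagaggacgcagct
Mcm6: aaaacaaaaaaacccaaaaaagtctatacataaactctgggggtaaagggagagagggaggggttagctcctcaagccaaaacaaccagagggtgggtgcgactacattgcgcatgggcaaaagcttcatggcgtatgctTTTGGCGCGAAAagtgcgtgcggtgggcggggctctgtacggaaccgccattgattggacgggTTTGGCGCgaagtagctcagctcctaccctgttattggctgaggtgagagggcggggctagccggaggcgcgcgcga
Ccnb2: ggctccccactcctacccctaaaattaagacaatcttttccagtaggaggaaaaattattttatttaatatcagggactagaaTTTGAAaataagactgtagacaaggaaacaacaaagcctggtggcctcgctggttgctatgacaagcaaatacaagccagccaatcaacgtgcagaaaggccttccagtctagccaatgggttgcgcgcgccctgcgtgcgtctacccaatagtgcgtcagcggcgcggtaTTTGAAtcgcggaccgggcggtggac
Cdca8: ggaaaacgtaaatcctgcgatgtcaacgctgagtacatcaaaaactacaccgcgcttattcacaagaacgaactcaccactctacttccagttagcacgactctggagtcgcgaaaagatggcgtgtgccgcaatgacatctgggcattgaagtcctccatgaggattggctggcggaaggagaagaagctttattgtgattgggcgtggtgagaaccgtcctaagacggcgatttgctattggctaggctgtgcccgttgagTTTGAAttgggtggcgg
Cdc6, a loader of the helicase, and Mcm6, one of its subunits, fell (-3.91 ± 0.29 and -3.67 ± 0.34), as did Cdca8, a subunit of the chromosomal passenger complex (-4.89 ± 0.18). Mcm6 holds 3 E2F-like matches, of which 2 overlap.

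Ribosomal protein genes were lower by a small amount. Of 74, 11 fell and none rose, a count that was 3 without BM IM replicate 1, 7 without BM IM replicate 2, 9 to 12 without 1 of the others and 25 with scaling to library totals, and 69 were lower at an adjusted p under 0.05 alone (28.6% of all genes). The median was -0.73. Rplp2, of the stalk of the large subunit, had 39, 38.5 and 29.6 CPM in BM IMs and 13.4, 17, 17.1, 11.5 and 14.3 CPM in TIMs (log2 fold change -1.30 ± 0.16, adjusted p = 8.74e-05), and Rpl3 and Rps3 differed by -0.46 ± 0.11 and -0.32 ± 0.09. Rplp1 and Rps28 fell as well (-1.17 ± 0.12 and -1.11 ± 0.14, the last at -0.98 without BM IM replicate 1). Many of these genes have near-identical pseudogenes, so single values are uncertain. Of 25 ribosome biogenesis genes, 4 fell, Dkc1 (-1.26 ± 0.12), Pa2g4 (-1.12 ± 0.12), Wdr12 (-1.06 ± 0.14) and Rrs1 (-1.04 ± 0.11), and Ncl and Npm1, the major nucleolar proteins, differed by -0.59 ± 0.10 and -0.90 ± 0.12. Wdr12 was at -0.98 without BM IM replicate 1, and Rrs1 at -0.99 without BM IM replicate 2 and -0.98 without TIM replicate 3, all short of a call.

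Regulators of progenitors had no common direction. Of 18, 5 rose, Flt3 (2.23 ± 0.16), Runx1 (1.22 ± 0.14), Sox4 (2.13 ± 0.72), Cd93 (1.14 ± 0.21) and Mycn, which had 0 counts in BM IM libraries and 0.128 to 0.303 CPM in TIM libraries. Flt3 is also among the dendritic cell markers given above, and the part of those cells was not tested. The 4 that fell were Myb (-4.73 ± 0.47), the factor of dividing progenitors, Gfi1 (-4.57 ± 1.03), Cebpe (-1.38 ± 0.36), of granulocytes, and Prom1 (-1.82 ± 0.58). Calls of Sox4 (adjusted p = 0.0503 to 0.11 without any 1 BM IM library or TIM replicate 2), Cebpe and Prom1 (adjusted p = 0.0575 and 0.114 without BM IM replicate 3) and Cd93 (0.95 on the log2 scale without TIM replicate 3) rested on single libraries. Gata2, a factor of stem and mast cells, differed by 0.80 ± 0.55. The median of 0.09 changed sign with the scaling and with single libraries. BCL2 family genes rose for 7 of 16, and Bid, a death-promoting member, fell (-1.08 ± 0.09). The survival genes Bcl2a1b, Bcl2a1a and Bcl2a1d, near-identical copies and so uncertain, rose by 3.74 ± 0.15, 3.33 ± 0.25 and 3.15 ± 0.27, and Bcl2l11, a death promoter, by 2.15 ± 0.15. Bcl2 and Mcl1 differed by 0.66 ± 0.23 and 0.34 ± 0.47, neither of them a call, and Mcl1 was at 1.17 without BM IM replicate 1 and -0.06 without BM IM replicate 3.

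To see where primary tumor TIMs differed from the most similar group, they were compared with the 5 TIM libraries from lymph node metastases of the same line in the same strain, which share no library with the marrow. Lymph node replicate 1 stood apart in its group: it correlated with the others at 0.894 to 0.906, against 0.934 to 0.946 among them, held 11047 genes at 10 counts or more against 12433 to 12828, and had a mast cell and basophil sum of 429 CPM against 4.11 to 22.4 CPM. Counts without it, added after seeing the data, are given beside the results. Of 13488 genes tested, 0.534% rose and 3.68% fell in lymph node TIMs by the rule above (6.15% higher and 5.55% lower at an adjusted p under 0.05 alone). At the DEG thresholds 4 genes passed, all lower in lymph node TIMs: Tnc, Mmp3, Mmp10 and Igsf10. That count was 0 to 2 with 1 library left out, 0 with 10 counts asked of every library, and 483 with DESeq2. The 497 genes that fell became 863, 839 and 763 without lymph node replicate 1, 3 or 4, 1260 with DESeq2, 1064 with all 5 groups in 1 fit and 181 with 10 counts asked of every library, and the 72 that rose became 109 without lymph node replicate 5. Tnc, the matrix protein tenascin C, had 19, 34, 23.3, 34.6 and 31.3 CPM in primary tumor TIMs and 0.0121, 0.0528, 0.0118, 0 and 0 CPM in lymph node TIMs (adjusted p = 8.17e-06). Mmp3, a stromal matrix protease, had 25.3, 47.1, 14.9, 94.1 and 52.9 CPM in primary tumor TIMs and 0.0242, 0.0528, 0, 0 and 0 CPM in lymph node TIMs (adjusted p = 8.23e-05). Every lymph node library lay near the limit of a count of 0 for both genes, and every primary tumor library well above it. Fibroblast markers fell in the same direction, 7 of 10 (7 without lymph node replicate 1, and 5 without primary tumor replicate 2, 4 or 5), with sums of 12.2 to 111 CPM in lymph node TIMs. Lung epithelium markers fell for 8 of 10 (at most 165 CPM). The part of those cells was not tested.

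Among the 34 lists, those of matrix, mitosis and collagen genes had the most members that fell in lymph node TIMs, with all libraries and without lymph node replicate 1. The collagen signature fell for 7 of 9 in lymph node TIMs (median -4.49), for 8 without that library and for 5 without any 1 primary tumor replicate. Col1a1 was at -5.08 ± 0.59 and Col1a2 at -4.27 ± 1.22. Matrix genes fell for 9 of 37 (11 without that library, and 5 without primary tumor replicate 3, 4 or 5), Mmp14 among them (-1.07 ± 0.17), while Mmp9 (-4.01 ± 1.32, adjusted p = 0.0739) did not pass. Mitosis genes fell for 9 of 33 (median -1.75), for 11 without that library and for 5 without primary tumor replicate 4, although Mki67 differed by 0.05 ± 0.27, and no DNA replication gene passed (median -0.50; 2 fell without that library). Macrophage maturation genes fell for 5 of 28 and rose for 1, or 7 and 1 without that library.

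Of 32 interferon genes, 2 rose and 11 were higher at an adjusted p under 0.05 alone, against 0.534% and 6.15% of all genes (median 0.55). The looser count was 12 without lymph node replicate 1, 18 without lymph node replicate 3 and 8 without primary tumor replicate 1 or 5. Isg15 differed by 0.74 ± 0.15 (adjusted p = 0.00833) and Ifit1 by 0.97 ± 0.23 (adjusted p = 0.0209). Class I genes were higher for 9 of 18 by the looser rule, none past the fold (Tap1 at 0.33 ± 0.14), or 11 without lymph node replicate 1 and 5 without primary tumor replicate 4 or 5. Vegfa (0.03 ± 0.22), Slc2a1 (-0.19 ± 0.15), Tnfaip3 (-0.24 ± 0.09) and Cxcl10 (0.35 ± 0.13) did not pass. Immediate early genes fell for 3 of 26, Fos among them (-1.33 ± 0.12, adjusted p = 1.67e-04), and rose for 1.

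**Figure D5:**
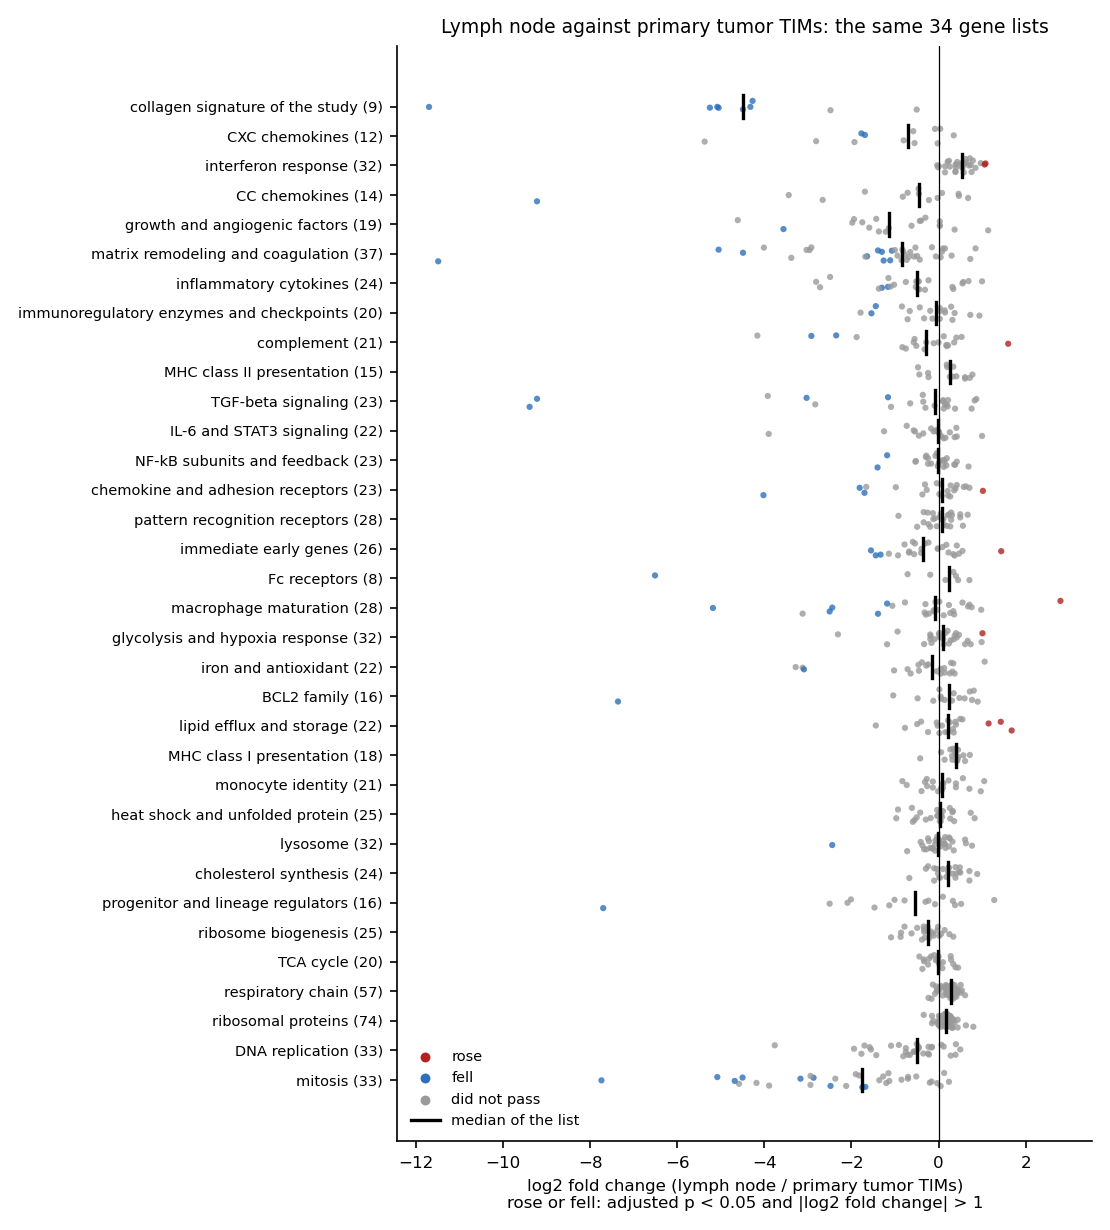
Log2 fold change of every tested member of the same 34 gene lists, lymph node against primary tumor TIMs, 1 point per gene (number tested in parentheses), with the median of each list as a bar. Collagen signature and mitosis members spread to the left, interferon members sit just right of 0 with a median of 0.55, and most other lists are centered near 0.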

How the data were processed

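RNA was sequenced from sorted monocytes of 21 libraries, of which 8 enter the main comparison and 5 lymph node TIM libraries a further one. The values are raw read counts per gene symbol deposited by the authors, who trimmed reads with BBDuk, aligned pairs to mm10 (GRCm38) with BBMap, sorted with SAMtools 1.8 and counted with featureCounts 1.5.2, per the methods and the submitters' processing notes. The counting settings are not given in the sources used here, and the libraries were not stranded, so reads of overlapping and antisense genes cannot be told apart. All 21 count columns were matched to samples by name, and 0 columns were left unmatched.

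Groups came from the labels. Only the libraries compared entered a fit, made with edgeR 4.0.16 in R 4.3.3 (TMM factors, filterByExpr, robust quasi-likelihood test, Benjamini-Hochberg adjustment). The filter asked for about 10 counts in about as many libraries as the smaller group holds, not in every library, and 15 counts in total. DEGs were called under an adjusted p of 0.0001 and beyond a log2 fold change of 1. Standard errors were derived from the F statistic and are approximate. CPM used TMM factors over all libraries, and log2 CPM a prior count of 2. A fold against libraries with 0 counts was computed from 3 counts per library. Python 3.11.15, numpy 2.4.6, pandas 2.3.3 and matplotlib 3.10.9 made summaries and plots. The code for the fits was tested on simulated data.

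Members and lists (34 programs, 17 marker lists) were chosen with earlier results of these data known. For each program the first 2 members and up to 4 further DEGs with the largest change could be named, across all genes the 10 rising and 10 falling DEGs with the largest change, a mean log2 CPM above 3 and no overlap between groups, and any marker gene. Members that make up a count of 5 or fewer, the genes that did not pass in a list that otherwise did, the 3 Fc receptor genes, the collagen and fibroblast genes and the pairs named as ligands or copies were named after their values were seen. The 11 list symbols not matched to the table were not analysed here, and a few further genes are not reported here. For promoters, the 2 called members per list with the largest change and a motif match were printed, and the letters of the kB-like and ISRE-like motifs were shortened after a first search. Alternatives were DESeq2 1.42.0, its size factors, library totals, 2 other filters, all groups in 1 fit, a replicate block, other thresholds and leaving out each library in turn.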

Additional observations from a re-analysis of the deposited data

Results flagged for a closer look

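Among 5 libraries of 1 group, a value stood apart when its gap to the nearest library exceeded 0.71 of the range of the group (Dixon's critical value), which chance gives in about 1 in 20 groups. In primary tumor TIMs this held for 18 of 230 genes (7.83%), and TIM replicate 3 was the library in 13 of these 18.

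In TIM replicate 3 the macrophage and stress genes Hmox1 (591 CPM, others 197 to 224), Slc7a11 (117 CPM, others 46.9 to 52.2), Il10 (3.55 CPM, others 1.27 to 1.75) and Ccl12 (38.7 CPM, others 19.6 to 21.2) were highest. The receptors Cd14 (6960 CPM, others 4090 to 4570), Cd93 (108 CPM, others 56.3 to 68.6), Fcgr2b (842 CPM, others 525 to 616) and Fcgr3 (1540 CPM, others 1180 to 1210) were highest there as well. So were Runx1 (241 CPM, others 162 to 179), Ppbp (2.08 CPM, others 0.0648 to 0.302) and Sdhc (50 CPM, others 40.2 to 42.9). The same library was lowest for 2810417H13Rik (1.05 CPM, others 4.1 to 4.53) and Rrs1 (13.7 CPM, others 16.8 to 18).

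In other libraries, TIM replicate 4 was highest for the gelatinase Mmp9 (68.3 CPM, others 5.37 to 10) and for S100a9 (328 CPM, others 31.7 to 63). TIM replicate 2 was highest for Cmpk2 (177 CPM, others 121 to 127) and lowest for Egr2 (14.8 CPM, others 20.5 to 22), and TIM replicate 1 was highest for Nr1h3 (38.4 CPM, others 22.1 to 25.3).

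Between the tumor sites, the test of lymph node against primary tumor TIMs passed the DEG thresholds for the matrix genes Tnc, Mmp3, Mmp10 and Igsf10, with fitted log2 fold changes of -10.76, -11.49, -10.75 and -9.92. Lymph node libraries were near 0 counts for these genes, so the fitted values depend on the prior count and are no bounds.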

How the results depend on the processing

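The 1879 DEGs (1124 higher and 755 lower in TIMs) became 4025 with DESeq2 unshrunken (2808 and 1217), 4004 with DESeq2 shrunken by a normal prior (2800 and 1204), 9025 at an adjusted p under 0.05 alone (4855 and 4170), and 5146 with the fold kept (3452 and 1694). Leaving out 1 library gave 938 to 2031 (604 to 1315 higher, 334 to 716 lower), and DESeq2's size factors, library totals, the other filters and all groups in 1 fit gave 1629 to 2053. The 4 genes that differed between tumor sites (3479 at an unadjusted p under 0.05) became 483 with DESeq2, 27 with all groups in 1 fit, 0 with 10 counts asked of every library (2856 unadjusted) and 1578 at an adjusted p under 0.05 alone, and 0 to 2 without 1 library. With the replicate number as a block, edgeR called 0 DEGs in each comparison (0 higher and 0 lower, 7546 and 3199 genes at an unadjusted p under 0.05), but 5954 and 533 at an adjusted p under 0.05. BM IMs have no replicate 4 or 5, so in the marrow comparison the block left those TIM libraries without weight on the group difference. Deviations of same-numbered libraries correlated at -0.07 to 0.01 with marrow and at -0.15 to 0.05 with the lymph node. Animal is not in the labels, and these correlations cannot show whether same-numbered libraries were paired. The cause of these changes was not tested.

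Of 1840 values for 230 named genes with 1 library left out, 1803 kept their direction and call, 23 lost the call (14 genes) and 12 gained it (7 genes). Under the other settings, 22 of 1792 lost the call (14 genes) and 8 gained it (3 genes), 56 of 612 list counts moved by over 1.5 times, and 35 of 272 list medians moved by more than the spread between replicates. Values that changed sign were Ctsd (-0.02) with library totals, Cs at 0.02 with DESeq2, its size factors or 10 counts asked of every library and at 0.01 without BM IM replicate 2, Mcl1 (-0.06 without BM IM replicate 3, and 1.17 without BM IM replicate 1), and the progenitor list's median, -0.08 with library totals, -0.12 with the replicate block and -0.28 to 0.27 with 1 library left out, negative without BM IM replicate 2 alone. Counts of members moved by over 1.5 times in 25 of 544 values with 1 library left out, chiefly in lists with 0 to 4 members called, ribosomal proteins excepted. List counts at the stricter DEG thresholds, an alternative chosen after seeing the data, were by construction no higher.

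Genes at or under 3 counts in BM IM libraries have no fold beyond a lower bound at this depth. Sorting day, animal and library batch are not in the labels, and site, digestion and cell purity changed with the group.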
